A study of Homo sapiens with 8 samples.

Results

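The genes described here are 10 members of the transforming growth factor beta (TGF-beta) pathway in LN229, an established human glioblastoma cell line. They are the ligands TGFB1, TGFB2, TGFB3 and INHBA, the latency protein LTBP1, the receptors TGFBR1 and TGFBR2, the intracellular proteins SMAD3 and SMAD7, and the target gene TGFBI. They were taken by gene symbol, and all 10 were found among the 58735 genes of the deposited table. RNA had been sequenced from 4 samples exposed for 48 h to 7.5 nM bortezomib, which blocks the proteasome, and 15 nM panobinostat, which blocks histone deacetylases. This treatment is called the combination here. The other 4 samples received the solvent DMSO for the same time, although a sample label calls them untreated. Both groups were the same line with no other agent or allele named in the labels. The comparison asks how transcript levels of these cells differ under the drug pair, and neither drug alone was among the samples used here.

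TGF-beta ligands are made as precursors that furin cleaves and that stay folded around the growth factor in a latent form, tethered to the matrix by latent TGF-beta binding proteins such as LTBP1. Integrins with an alpha V chain or thrombospondin can free the ligand, which then joins the type II receptor TGFBR2 to the type I receptor TGFBR1. TGFBR1 phosphorylates SMAD2 and SMAD3, which enter the nucleus with SMAD4 and switch on targets that include the feedback inhibitor SMAD7. In glioblastoma the pathway is known for immune suppression and invasion, and TGFB2 was isolated from glioblastoma cells as a factor that suppresses T cells.

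Levels are given in FPKM, fragments scaled to the length of the gene and to a library size, either in each sample or as a mean ± SD (n = 4). Fold changes are fitted differences of log2(FPKM + 1), which understate the change of low genes. The test was limma, its p-values adjusted by Benjamini-Hochberg over the 13296 genes whose mean over the 8 samples reached 1 FPKM, and a change was called at an adjusted p under 0.05. Totals ran from 15189251 to 17324292 reads per library. The labels do not say whether samples were grown apart, and p-values therefore reflect the spread among these libraries, which may be technical. The combination moved much of the transcriptome, with 77.8% of tested genes called (36.9% higher and 41.0% lower), and the counts of members below are to be read against those shares. Over all genes the balance depended on scaling, with 5518 higher and 4887 lower under upper-quartile factors against 4902 and 5445 as reported. Mitochondrial genes held 11.7% to 15.1% of reads after the combination and 4.31% to 6.69% in DMSO. Their part in the results was not tested. An alternative in which only reads of nuclear genes set the library size changes the scaling alone. The 8 member changes called here kept their sign and call under it, and TGFB1 was called higher as well (log2 fold change 0.14, limma adjusted p = 0.0174).

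Promoter sequences of 4 members are shown because these genes gave the largest rise (TGFB2), the largest rise of a receptor (TGFBR2), the largest fall (TGFBI), and a second ligand-side gene with a rise (LTBP1). Each runs from 250 bases before to 50 bases after a RefSeq transcription start on GRCh38.p14, on the gene's strand. Capitals mark matches, on either strand, to TGACGT (the core of the cyclic AMP response element), TGANTCA (the AP-1 motif), CAGAC (a SMAD-binding motif) or GGGCGG (the GC box).
TGFB2, chr1:218345086-218345385, plus strand: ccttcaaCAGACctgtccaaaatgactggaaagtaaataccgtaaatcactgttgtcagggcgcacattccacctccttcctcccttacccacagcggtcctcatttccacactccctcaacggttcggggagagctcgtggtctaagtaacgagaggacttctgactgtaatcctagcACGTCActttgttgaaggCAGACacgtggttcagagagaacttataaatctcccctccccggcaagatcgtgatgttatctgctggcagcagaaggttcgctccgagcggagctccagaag
LTBP1, chr2:32946703-32947002, plus strand: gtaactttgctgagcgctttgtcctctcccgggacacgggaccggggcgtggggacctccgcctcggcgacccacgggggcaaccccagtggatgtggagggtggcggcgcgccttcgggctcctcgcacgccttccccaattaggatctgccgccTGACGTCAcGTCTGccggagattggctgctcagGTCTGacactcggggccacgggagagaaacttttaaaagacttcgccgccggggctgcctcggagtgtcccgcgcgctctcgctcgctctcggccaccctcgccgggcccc
TGFBR2, chr3:30606351-30606650, plus strand: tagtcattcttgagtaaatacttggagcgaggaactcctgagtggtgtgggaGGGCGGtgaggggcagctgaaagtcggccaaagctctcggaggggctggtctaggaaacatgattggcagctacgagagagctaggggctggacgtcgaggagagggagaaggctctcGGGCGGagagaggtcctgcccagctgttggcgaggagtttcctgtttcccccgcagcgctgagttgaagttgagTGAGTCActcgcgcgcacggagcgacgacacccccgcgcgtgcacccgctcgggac
TGFBI, chr5:136028738-136029037, plus strand: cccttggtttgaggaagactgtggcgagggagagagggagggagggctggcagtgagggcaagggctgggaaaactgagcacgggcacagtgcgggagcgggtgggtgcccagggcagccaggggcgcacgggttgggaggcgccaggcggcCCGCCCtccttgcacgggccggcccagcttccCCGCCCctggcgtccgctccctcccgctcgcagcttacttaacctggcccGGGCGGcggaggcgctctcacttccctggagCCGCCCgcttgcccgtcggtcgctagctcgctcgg

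The windows of TGFB2 and LTBP1 both held TGACGT and CAGAC, and in LTBP1 the TGACGT matches on the opposite strands overlap. The TGFBR2 window held TGANTCA and GGGCGG, and the TGFBI window held GGGCGG at 4 places and none of the other motifs. Over all 35116 RefSeq start windows, 7.98% held TGACGT, 7.71% TGANTCA, 45.3% CAGAC and 45.0% GGGCGG on either strand. The 10 members have 27 such windows, of which 3 held TGACGT, 2 TGANTCA, 15 CAGAC and 8 GGGCGG. TGFBR1 has 8 of these windows and SMAD3 has 5. Some windows of a gene overlap, so that the same match can count more than once. The windows with TGACGT belong to TGFB2, LTBP1 and TGFB3, and the mean of TGFB3 was lower after the combination. A match describes the letters of a window and is no evidence of binding. The RefSeq start of TGFB2 lies before the start of the gene in GENCODE release 29. TGFBR2 has 2 windows and LTBP1 3, and those whose start lay nearest to the GENCODE start are shown. The LTBP1 windows not shown held CAGAC alone, and that of TGFBR2 held none of the motifs.

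Of the 10 members, 6 were higher after the combination (TGFB2, LTBP1, TGFBR1, TGFBR2, SMAD3 and SMAD7), 2 were lower (INHBA and TGFBI), TGFB1 was not called, and TGFB3 was below the filter. Among all genes tested, 36.9% were higher and 41.0% lower. All 9 that passed the filter had a mean of at least 1 FPKM in both groups, so no member passed through 1 group alone. The median log2 fold change of these 9 was 0.29, against -0.03 for all genes tested. The latter median lay between -0.10 and 0.05 under other settings of the fit. The members were chosen with earlier results of these data known, and the difference was not tested. TGFB2 alone exceeded a 2-fold change. The values of the groups did not overlap for 8 of the 9, 6 higher and 2 lower, which held for 72.7% of all genes tested (34.2% higher and 38.5% lower). Since RNA came from bulk cells, fewer cells with a transcript and less of it per cell cannot be told apart.

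**Figure D1:**
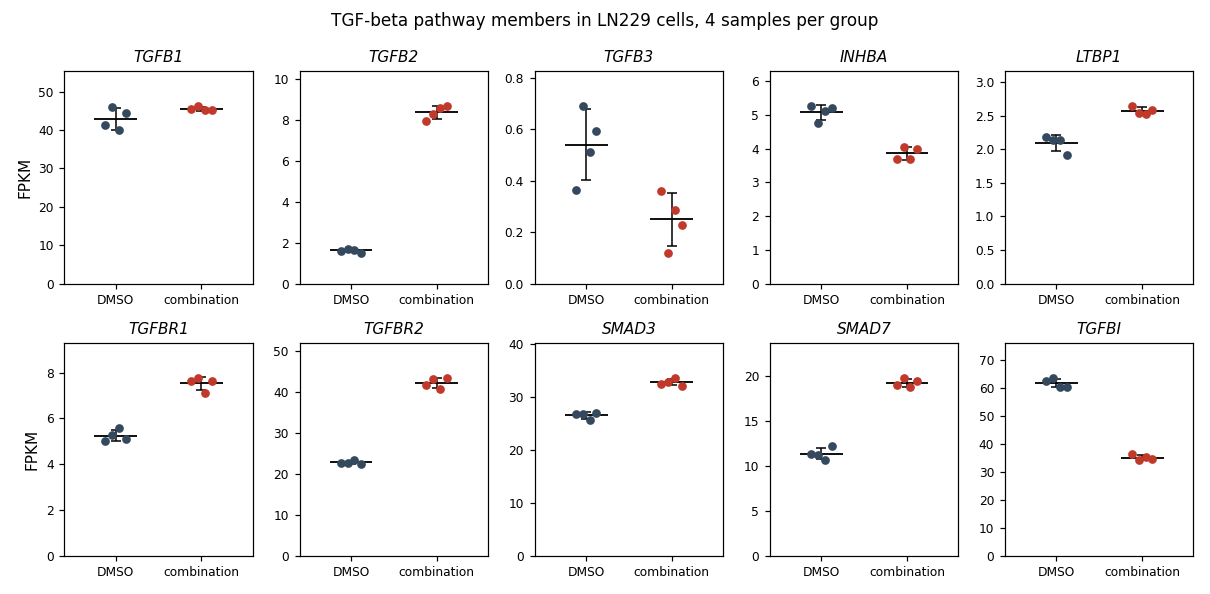
FPKM of the 10 members in each sample, on linear axes that start at 0 and differ between panels, with points for the 4 samples of each group, a line for the mean and bars for the SD. TGFB2 stood at 7.92 to 8.65 FPKM after the combination and at 1.5 to 1.70 in DMSO, whereas the points of TGFB1 overlap between the groups.

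Among the ligands, TGFB2 (chromosome 1, 218346235 to 218444619, GRCh38, plus strand) moved most. It stood at 7.92, 8.25, 8.56 and 8.65 FPKM in combination samples 1 to 4, and at 1.61, 1.70, 1.65 and 1.5 FPKM in DMSO samples 1 to 4. Every combination sample was thus far above every DMSO sample, and the means of 8.35 ± 0.330 and 1.62 ± 0.0863 FPKM (SD, n = 4) differed 5.17-fold. The fitted log2 fold change was 1.84 ± 0.0448 (SE, limma adjusted p = 5.89e-10), and it was 1.01 with a pseudocount of 5 FPKM and 2.30 with voom on recovered reads. The gene had 622 to 727 reads after the combination and 122 to 144 in DMSO. Of its merged exon length, 26.6% is also annotated as TGFB2-OT1, a transcript on the same strand near its 3′ end, which is listed at 0 in all 8 samples. No source used here tells how reads on shared bases were assigned, so the level of TGFB2 is less certain for it.

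TGFB2-AS1, an antisense transcript beside the TGFB2 start on the other strand (chromosome 1, 218344196 to 218345678), shares no exon bases with TGFB2 in GENCODE release 29 and spans the promoter window printed above. It and TGFB2-OT1 were named after their values were seen. TGFB2-AS1 stood at 10.4 ± 0.689 FPKM after the combination and 1.33 ± 0.372 in DMSO, with 82 to 98 and 7 to 15 reads. Its log2 fold change was 2.30 ± 0.114 (SE, limma adjusted p = 6.84e-08), so the values listed for both genes rose. The RefSeq start of TGFB2 lies within the span of TGFB2-AS1, and the strand setting was not stated. Reads from TGFB2 that were counted for TGFB2-AS1 can therefore not be told apart from its own.

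TGFB1, the most abundant of the TGF-beta ligand genes (chromosome 19, 41301587 to 41353911, minus strand), stood at 45.4, 46.2, 45.2 and 45.2 FPKM after the combination and at 41.3, 46.0, 39.9 and 44.5 FPKM in DMSO. The DMSO samples spread widely and DMSO sample 2 lay within the range of the combination. The log2 fold change of 0.08 (95% interval -0.02 to 0.19) did not pass (limma adjusted p = 0.115). It passed with upper-quartile factors (0.18, adjusted p = 0.00348) and with nuclear reads as the library size (0.14, adjusted p = 0.0174). It also passed without DMSO sample 2 (0.12, adjusted p = 0.0275). With library totals the change was 0.015 (limma adjusted p = 0.802), and with voom on recovered reads 0.016 (adjusted p = 0.765). A small rise of TGFB1 thus depended on these choices.

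TGFB3 (chromosome 14, 75958099 to 75982991, minus strand) was barely detected. It stood at 0.361, 0.119, 0.287 and 0.229 FPKM after the combination, from 10 to 27 reads, and at 0.363, 0.688, 0.512 and 0.593 FPKM in DMSO, from 31 to 54 reads. The groups touched without overlapping, since combination sample 1 and DMSO sample 1 were nearly equal. The gene was not tested under the filter. Without a filter its log2 fold change was -0.30 with limma adjusted p = 0.0425.

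As a share of the summed FPKM of these 3 ligand genes, TGFB2 rose from 3.59% ± 0.302 in DMSO to 15.4% ± 0.586, while TGFB1 went from 95.2% ± 0.310 to 84.1% ± 0.584. The sum itself was 54.1 ± 0.385 FPKM after the combination and 45.1 ± 2.95 in DMSO. These shares are given without a test. The ratio of TGFB2 to TGFB1 within a sample, which does not depend on library scaling, lay between 0.175 and 0.192 after the combination and between 0.0337 and 0.0414 in DMSO. Its log2 value differed by 2.28 (exact permutation test, two-sided p = 0.0286, n = 4 each). This is the smallest p that 4 against 4 can give, and the same value, 0.0286, was obtained for each of the 7 ratios tested, also after adjustment over them. The ratio of TGFB3 to TGFB1 differed by -1.27 on the log2 scale, by -0.95 without combination sample 2, whose TGFB3 value rests on 10 reads, and by -0.38 with 1 FPKM added to both genes.

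INHBA encodes the beta A chain whose dimer is activin A, a ligand that signals through SMAD2 and SMAD3 by its own receptors (chromosome 7, 41667168 to 41705834, minus strand). It stood at 3.71, 4.04, 3.69 and 4.0 FPKM after the combination and at 5.26, 4.76, 5.11 and 5.20 FPKM in DMSO. All combination samples were below all DMSO samples, and the means differed 1.32-fold. The log2 fold change was -0.32 ± 0.0455 (SE, limma adjusted p = 0.00012). Follistatin (FST), a secreted antagonist that binds activin, fell further, from 16.4 ± 0.960 to 5.36 ± 0.844 FPKM. The ratio of INHBA to FST therefore went up, from between 0.292 and 0.328 in DMSO to between 0.570 and 0.889, a log2 difference of 1.23. FSTL3, a related antagonist, rose from 7.42 ± 0.467 to 44.0 ± 1.77 FPKM, so the antagonists of activin moved in opposite directions.

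LTBP1 (chromosome 2, 32946972 to 33399509, plus strand) stood at 2.64, 2.55, 2.52 and 2.58 FPKM after the combination and at 2.19, 2.14, 2.13 and 1.92 FPKM in DMSO. The groups did not overlap, but the rise was small, with a log2 fold change of 0.21 ± 0.0499 (SE, limma adjusted p = 0.0038). Relative to TGFB1 it differed by 0.21 on the log2 scale (0.12 with 1 FPKM added to both genes, exact permutation p = 0.143). The other family members went different ways. LTBP2, chosen after its values were seen, fell from 3.29 ± 0.108 to 2.02 ± 0.131 FPKM. LTBP3 fell from 49.6 ± 2.75 to 21.6 ± 0.952 FPKM and LTBP4 rose from 20.3 ± 1.36 to 24.0 ± 0.593 FPKM. LTBP4 in place of LTBP3 then held the largest share of the summed FPKM of the 4 LTBP genes, 47.9% ± 0.518 against 27.0% ± 0.686 in DMSO, and LTBP1 held 5.13% ± 0.0853 against 2.79% ± 0.286.

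Both receptor members rose. TGFBR2 (chromosome 3, 30606502 to 30694142, plus strand) stood at 41.8, 43.2, 40.8 and 43.3 FPKM after the combination and at 22.8, 22.6, 23.4 and 22.5 FPKM in DMSO. The groups were well apart, 1.85-fold by their means, with a log2 fold change of 0.86 ± 0.0298 (SE, limma adjusted p = 5.81e-09). TGFBR1 (chromosome 9, 99104038 to 99154192, plus strand) stood at 7.65, 7.74, 7.09 and 7.62 FPKM against 5.01, 5.27, 5.57 and 5.11 FPKM in DMSO. It rose in every sample of the combination above every DMSO sample, 1.44-fold by the means, with a log2 fold change of 0.45 ± 0.0428 (SE, limma adjusted p = 7.29e-06). The rise of TGFBR2 was the larger one, since the ratio of TGFBR1 to TGFBR2 fell from between 0.220 and 0.238 to between 0.174 and 0.183, a log2 difference of -0.37 (exact permutation test, two-sided p = 0.0286, n = 4 each).

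The other receptor genes moved in both directions or were not called. The co-receptor TGFBR3, which presents TGF-beta ligands and TGFB2 above all, was not called and was chosen after its values were seen. It had 2.47 ± 0.195 FPKM after the combination and 2.43 ± 0.129 in DMSO. Its log2 difference was 0.02 (95% interval -0.12 to 0.15, limma adjusted p = 0.814). Endoglin (ENG), another co-receptor, fell from 26.1 ± 1.91 to 7.75 ± 0.762 FPKM. Of the activin receptors, ACVR2A rose from 2.33 ± 0.0945 to 3.35 ± 0.224 FPKM and ACVR1B fell from 5.31 ± 0.408 to 4.26 ± 0.218 FPKM. Of the 7 other receptor genes listed, 4 were tested, 1 was higher and 2 were lower, beside 36.9% and 41.0% of all genes tested.

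SMAD3, which carries the signal to the nucleus (chromosome 15, 67063763 to 67195195, plus strand), stood at 32.6, 32.9, 33.5 and 32.2 FPKM after the combination and at 26.9, 26.8, 25.7 and 27.1 FPKM in DMSO. The groups did not overlap and the log2 fold change was 0.29 ± 0.0286 (SE, limma adjusted p = 9.28e-06). SMAD7, the inhibitory SMAD that binds TGFBR1 and recruits ubiquitin ligases to it (chromosome 18, 48919853 to 48952052, minus strand), stood at 19.0, 19.7, 18.8 and 19.4 FPKM against 11.3, 11.2, 10.7 and 12.2 FPKM in DMSO. Each combination sample was above each DMSO sample, 1.69-fold by the means, with a log2 fold change of 0.71 ± 0.0412 (SE, limma adjusted p = 2.06e-07). Within samples, the ratio of SMAD7 to SMAD3 went up from between 0.416 and 0.452 to between 0.560 and 0.602, a log2 difference of 0.46 (exact permutation test, two-sided p = 0.0286, n = 4 each).

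SMAD2, the partner of SMAD3 as a receptor substrate, rose from 2.43 ± 0.0968 to 3.94 ± 0.0522 FPKM, and the ratio of SMAD3 to SMAD2 fell by 0.40 on the log2 scale (by 0.23 with 1 FPKM added to both genes). The level of that ratio, 8.33 ± 0.0517 after the combination and 11 ± 0.361 in DMSO, depends on the merged exon length of 36366 bases that the table uses for SMAD2, but its change does not. SMAD4, the shared partner of both, fell from 5.30 ± 0.102 to 4.13 ± 0.332 FPKM (limma adjusted p = 0.000488). It lies outside the rule for named genes and was chosen after its values were seen. The acetyltransferases CREBBP and EP300, coactivators of SMAD3, fell from 6.93 ± 0.276 to 2.62 ± 0.115 FPKM and from 9.33 ± 0.402 to 5.74 ± 0.295 FPKM. TRIM33, which binds SMAD2 and SMAD3, fell to 4.48 ± 0.176 from 5.96 ± 0.195 FPKM, and the adaptor DAB2 rose to 5.35 ± 0.433 from 4.24 ± 0.25 FPKM. Of the 8 genes listed as other SMADs and partners, 7 were tested, 2 were higher and 4 were lower. The shares over all genes tested were 36.9% and 41.0%.

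**Figure D2:**
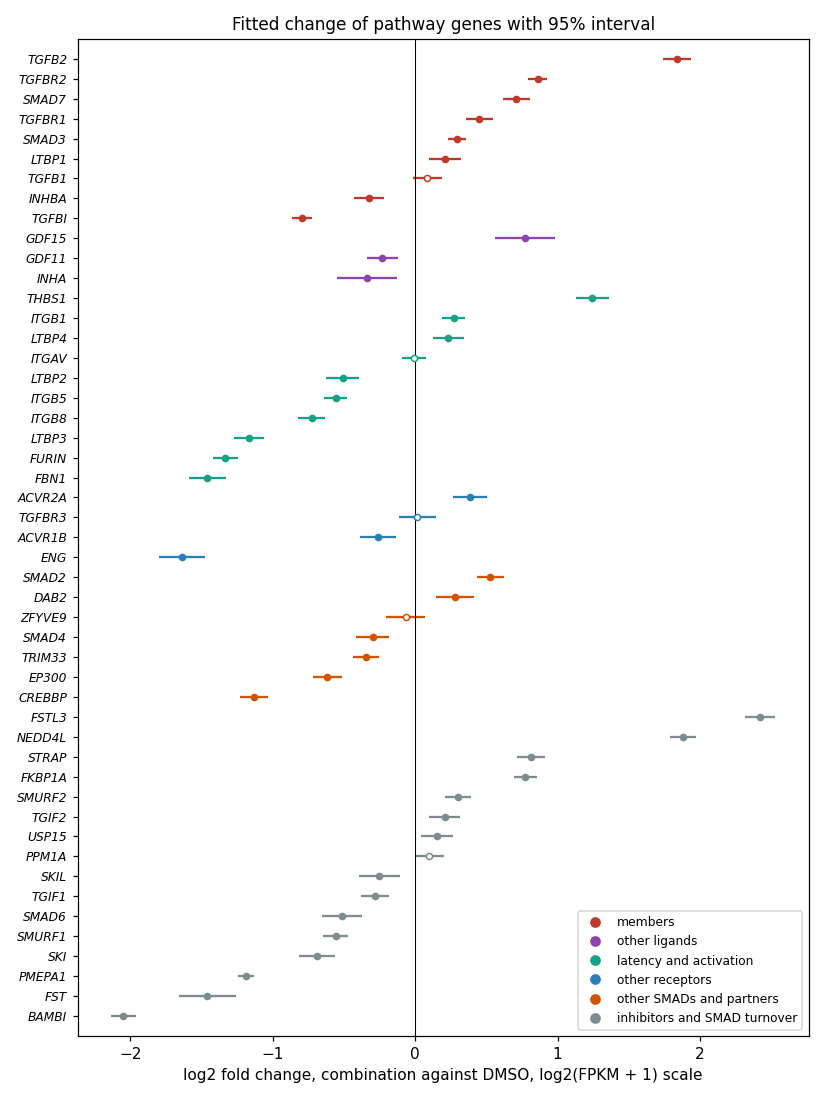
Fitted log2 fold change of each tested pathway gene, combination against DMSO, on the log2(FPKM + 1) scale, with the 95% interval as a line, colours for the gene lists and open points for genes not called. The receptors TGFBR2 and TGFBR1 lie to the right while ENG lies at -1.63. The list of inhibitors and SMAD turnover runs from -2.05 (BAMBI) to 2.42 (FSTL3).

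TGFBI, a secreted matrix protein named for its induction by TGF-beta, was the member with the largest fall (chromosome 5, 136028895 to 136063818, plus strand). It stood at 36.2, 34.0, 35.4 and 34.6 FPKM after the combination and at 62.2, 63.3, 60.3 and 60.3 FPKM in DMSO, from 4303 to 4546 and 7443 to 8452 reads. The groups were far apart, 1.76-fold by their means, and the log2 fold change was -0.79 ± 0.0304 (SE, limma adjusted p = 1.16e-08). TGFBI thus fell while SMAD7, also a target of the pathway, rose.

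Other targets were split in the same way. The list of 27 genes known to respond to TGF-beta, which does not hold TGFBI or SMAD7 but shares 5 genes with the other lists, had 24 tested genes, of which 11 were higher and 11 lower. Their median log2 fold change was -0.03, as over all genes tested, of which 36.9% were higher and 41.0% lower. Of the 24, 23 had a mean of at least 1 FPKM in both groups. COL1A1, counted as higher and named after its values were seen, passed the filter through the combination group alone. It had 3.47 ± 0.225 FPKM there and 0.735 ± 0.0443 in DMSO. IL11, a cytokine of the IL6 family, rose from 10.6 ± 0.810 to 146 ± 14.2 FPKM, its log2 fold change being 3.66 ± 0.0725 (SE, limma adjusted p = 1.72e-10). Rises were also found for the matricellular gene CCN1 (CYR61 in the table) from 95.9 ± 10.6 to 719 ± 28.3 FPKM, and the transglutaminase TGM2 from 5.39 ± 0.251 to 16.6 ± 0.176 FPKM. In the other direction, the matrix protein tenascin C (TNC) fell from 160 ± 6.97 to 33.5 ± 1.25 FPKM and the gelatinase MMP2 from 416 ± 19.5 to 98.6 ± 2.15 FPKM. COL4A1, a basement membrane collagen chain, fell from 15.7 ± 0.644 to 5.86 ± 0.0980 FPKM. PMEPA1, a target that dampens SMAD signalling, fell from 232 ± 1.57 to 101 ± 1.56 FPKM. Many of these genes also answer to other pathways. CDKN2B, a cell cycle inhibitor in this list named after its values were seen, was listed at 0 in all 8 samples.

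**Figure D3:**
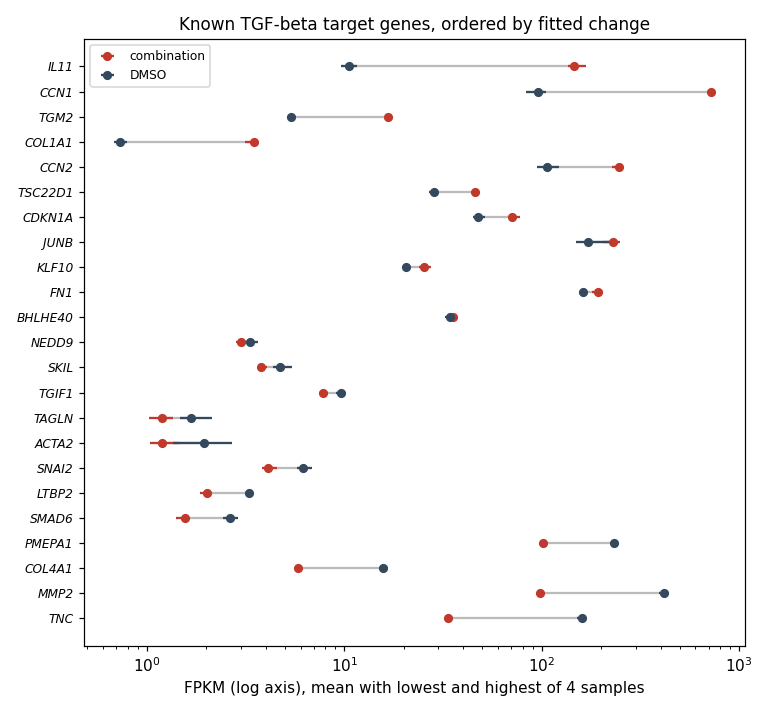
FPKM of 23 tested target genes on a log axis, with points for the mean of 4 samples, lines for the lowest and highest sample and a grey bar between the groups. IL11 went from 10.6 to 146 FPKM at the top and TNC from 160 to 33.5 at the bottom.

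Inhibitors of the pathway and genes of SMAD turnover, listed together, also moved in both directions, 7 of 16 higher and 8 lower (median log2 fold change -0.08). All genes tested also moved both ways, 36.9% higher and 41.0% lower, with a median of -0.03. NEDD4L, a ubiquitin ligase that removes activated SMAD2 and SMAD3, rose from 5.48 ± 0.189 to 22.9 ± 1.09 FPKM (log2 fold change 1.88 ± 0.0411 SE, limma adjusted p = 3.03e-10). FKBP1A, which binds and silences the type I receptor, rose from 184 ± 7.47 to 315 ± 4.69 FPKM, and STRAP, which acts with SMAD7, from 54.4 ± 3.36 to 96.0 ± 1.58 FPKM. BAMBI, a decoy receptor without a kinase, fell from 117 ± 5.96 to 27.6 ± 0.355 FPKM (log2 fold change -2.05 ± 0.0383 SE, limma adjusted p = 1.29e-10). SMURF1, a ubiquitin ligase that works through SMAD7, fell from 11.9 ± 0.476 to 7.76 ± 0.292 FPKM.

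Of 13 genes of latency and ligand release, 10 were tested, 3 were higher and 6 lower (median log2 fold change -0.53). Over all genes tested, 36.9% were higher and 41.0% lower, with a median of -0.03. FURIN, the protease that cleaves the precursors, fell from 72.6 ± 2.77 to 28.2 ± 1.08 FPKM, and FBN1, the fibrillin to which latent complexes attach, from 8.82 ± 0.165 to 2.58 ± 0.279 FPKM. THBS1, thrombospondin 1, rose from 97.7 ± 6.22 to 232 ± 9.77 FPKM, and the integrin chain ITGB1 from 146 ± 2.55 to 177 ± 7.30 FPKM. The other integrin chains listed, named after their values were seen, did not rise among those tested. ITGB8 fell (log2 fold change -0.73, limma adjusted p = 2.44e-07), as did ITGB5 (-0.56, adjusted p = 4.21e-07). The alpha V chain ITGAV was not called (-0.01, adjusted p = 0.863), and ITGB6 was below the filter. Only 3 of the 10 other ligand genes were abundant enough to test. GDF15, a distant family member, rose from 35.8 ± 4.54 to 61.5 ± 5.01 FPKM, GDF11 fell from 10.3 ± 0.581 to 8.64 ± 0.388 FPKM (not called after quantile normalization, limma adjusted p = 0.0524), and INHA, the inhibin alpha chain, fell from 2.43 ± 0.283 to 1.72 ± 0.291 FPKM.

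Over the 76 genes of these lists that are not members, 59 were tested and 25 were higher and 28 lower. That is 89.8% called, beside 77.8% of all tested genes. The lists were chosen with earlier results of these data known and were not matched to all genes by level. The difference between these shares was not tested. Of the 59, 58 had a mean of at least 1 FPKM in both groups, the exception being COL1A1.

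The order of the members by level also changed. In DMSO, TGFBI was highest, followed by TGFB1, SMAD3, TGFBR2, SMAD7, TGFBR1, INHBA, LTBP1, TGFB2 and TGFB3. The sample values of TGFBR1 and INHBA overlapped there, and no other neighbours in that order did. After the combination the order was TGFB1, TGFBR2, TGFBI, SMAD3, SMAD7, TGFB2, TGFBR1, INHBA, LTBP1 and TGFB3, with no overlap between neighbours. TGFB2 went from rank 9 to rank 6 and TGFBI from rank 1 to rank 3.

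**Figure D4:**
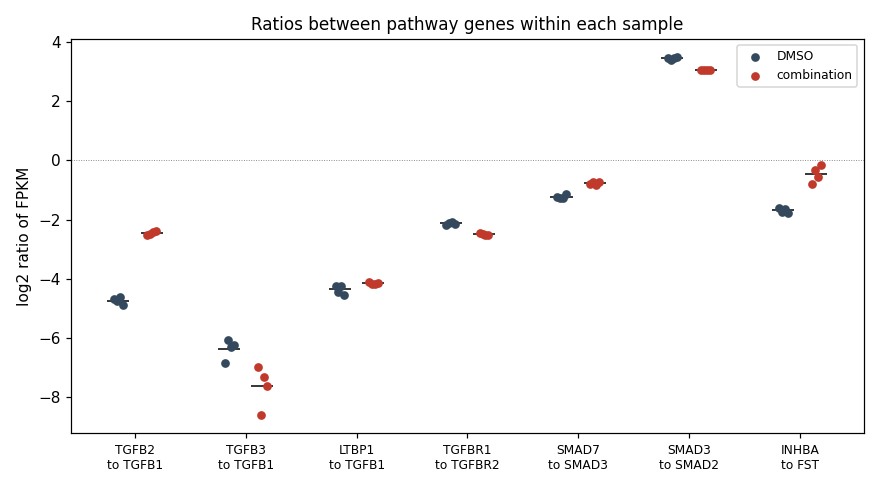
Log2 ratio of FPKM between pairs of pathway genes within each sample, with points for the 4 samples of each group and a line for the mean. The groups do not overlap for any of the 7 ratios, and the widest gap is that of TGFB2 to TGFB1, with a log2 difference of 2.28. The share of other gene pairs without overlap was not computed, and 72.7% of single tested genes did not overlap.

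The genes whose profile over the 8 samples was most like that of TGFB2 were CYB5R1, GNPDA1 and SLC2A3, with root mean square differences of 0.0428, 0.0472 and 0.0493 between centred log2(FPKM + 1) values. For TGFBI they were NSMCE4A, PLCB1 and HMGN1, with differences of 0.0228, 0.0299 and 0.0318. With 2 groups of 4 samples such a likeness mostly says that the changes are of similar size.

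Of the 8 marker genes listed for the glioma line, 7 were above 1 FPKM in at least 1 sample. Of these, 4 fell: VIM from 315 ± 18.1 to 116 ± 5.65 FPKM, NES from 188 ± 5.29 to 58.6 ± 1.05, S100B from 257 ± 6.59 to 17.8 ± 0.823 and SOX2 from 54.3 ± 1.94 to 5.77 ± 0.668. OLIG2 rose from 2.34 ± 0.300 to 3.50 ± 0.566 FPKM, CD44 and EGFR were not called, and the astrocyte marker GFAP was at most 0.223 FPKM. The summed level of these 8 genes was 251 to 266 FPKM after the combination and 857 to 884 in DMSO. All 5 immune and all 4 endothelial markers stayed under 1 FPKM in every sample. The fibroblast and pericyte list, of 5 genes, summed to 43.9 to 47.7 FPKM against 11.2 to 13.7 in DMSO, mostly from LUM, and the epithelial list, of 4 genes, to 24.1 to 28.2 against 14.2 to 15.3, mostly from KRT18. These values moved together with the members, and their part in the results was not tested.

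**Figure D5:**
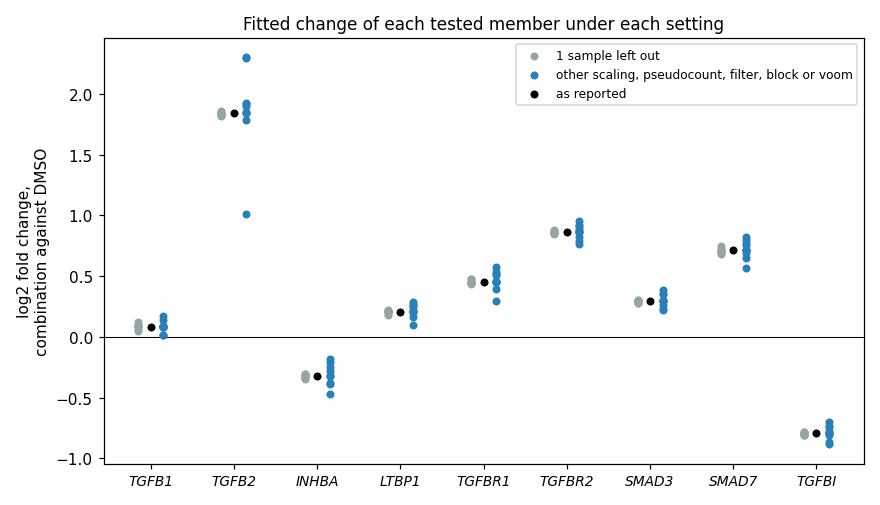
Fitted log2 fold change of each of the 9 tested members as reported (black), with 1 sample left out (grey) and under other scalings, pseudocounts, filters, the replicate block or voom (blue). Every point of a called member keeps the sign it has as reported, and TGFB2 ranges from 1.01 to 2.30.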

How the data were processed

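RNA of LN229 cells was sequenced in 4 samples per group, although the labels' extraction protocol speaks of brain tissue. The authors deposited 1 table of FPKM values, per the file headers. Bowtie 0.12.2 and the genome builds GRCh37 and mm8 appear, with no role, in the submitters' processing notes. The positions and exon lengths of the members are those of GENCODE 29 (GRCh38), which are printed. Counter and strand setting were not stated.

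Reads were recovered as FPKM times length over the value of 1 read, and 100% of nonzero values were whole within 0.02. At this depth 3 reads on 1 kb amount to 0.173 to 0.197 FPKM, a floor for counting error only. limma 3.58.1 (R 4.3.3) was run on log2(FPKM + 1) with a mean-variance trend and group as the only term, at a minimum mean of 1 FPKM. It was also tested on simulated data with few changed genes, which does not cover a setting where most genes change. Ratios within samples were compared by two-sided exact permutation tests.

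The members and lists were chosen with earlier results of these data known. Named genes are the 10 members and, per list, those called with the lowest p, at most 3 in each direction (4 for inhibitors and targets). Other pathway genes in the main text are marked as chosen after their values were seen. The values of 1 target gene are not reported here, though it is counted with its list. Nearest profiles were sought among tested protein-coding genes. CCN1 and CCN2 were matched by gene ID, and members to RefSeq by symbol. Alternatives were other scalings (totals, median of ratios, upper quartile, nuclear reads, quantiles), pseudocounts of 0.1 and 5, no filter or a minimum of 5 FPKM, voom on recovered reads, a block for the replicate number, and each sample left out.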

Additional observations from a re-analysis of the deposited data

Results flagged for a closer look

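In 15 of 138 groups of 4 samples checked among members and tested pathway genes, 1 sample lay apart from the other 3, where chance gives about 1 in 20. Among the members this was SMAD3 alone, at 25.7 FPKM in DMSO sample 3 against 26.8 to 27.1 in the others.

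DMSO sample 4 stood apart for JUNB (225 FPKM against 149 to 157), FST (17.8 against 15.8 to 16), CREBBP (7.34 against 6.74 to 6.83) and SMURF2 (6.87 against 7.53 to 7.56). The JUNB value lies within the range of the combination samples.

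Combination sample 4 stood apart for IL11 (167 FPKM against 135 to 140), ITGB1 (188 against 172 to 174), CDKN1A (77.3 against 67.5 to 68.8), ZFYVE9 (3.92 against 3.60 to 3.62) and NEDD9 (3.37 against 2.82 to 2.91).

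The other cases were CCN2 in combination sample 1 (227 FPKM against 250 to 252), MMP2 in combination sample 2 (95.4 against 99.3 to 100), SKIL in combination sample 3 (4.06 against 3.67 to 3.71), TAGLN in DMSO sample 2 (2.13 against 1.47 to 1.57) and TGIF1 in DMSO sample 3 (9.04 against 9.81 to 9.90). No library measure was tested against these values.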

How the results depend on the processing

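All 8 called members kept their sign and call under each alternative that gave a value. TGFB1 passed with upper-quartile factors, nuclear reads and without DMSO sample 2. With a mean of at least 5 FPKM required, TGFB2, INHBA and LTBP1 were not tested. This left 4 higher members in place of 6 and 1 lower member in place of 2. With no filter, TGFB3 was tested and called lower (limma adjusted p = 0.0425), which made 3 lower members. Leaving out each sample gave 6 to 7 higher and 2 lower members, and 25 to 26 higher and 27 to 28 lower genes among the other lists. ACTA2 was no longer called without combination sample 3 or 4, without DMSO sample 1 or 2, or without the filter, and TAGLN without combination sample 4. GDF11 (adjusted p = 0.0524) and SKIL (0.0711) were no longer called after quantile normalization, nor USP15 (0.121) with library totals. Over all genes, 7747 were higher and 6386 lower with no filter, in place of 4902 and 5445. Higher genes outnumbered lower ones with upper-quartile factors (5518 and 4887), quantile normalization (5496 and 4938) and nuclear reads (5304 and 5088) as well, and not under the other scalings. With at least 5 FPKM, 2821 were higher and 3277 lower, since fewer genes were tested. The median change of all tested genes lay between -0.10 and 0.05 on the log2 scale over the alternatives.

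No pairing by replicate number was visible, since deviations of same-numbered samples correlated by -0.02 to 0.07. This cannot tell whether the samples were paired by design. With the number as a block, 4839 genes were higher and 5404 lower. For the ratios, the block left the log2 differences at 2.28 (TGFB2 to TGFB1), -1.27 (TGFB3 to TGFB1), 0.21 (LTBP1 to TGFB1), -0.37 (TGFBR1 to TGFBR2), 0.46 (SMAD7 to SMAD3), -0.40 (SMAD3 to SMAD2) and 1.23 (INHBA to FST), with an exact p of 0.125, the smallest that 4 pairs allow. With 1 FPKM added to both genes, the LTBP1 to TGFB1 difference was 0.12 (exact permutation p = 0.143), that of TGFB3 to TGFB1 -0.38 and that of SMAD3 to SMAD2 -0.23, while the other 4 moved by less than 1.5 times. Without 1 sample the smallest exact p is 0.0571, and the differences ran, in the same order, from 2.23 to 2.33, -1.49 to -0.95, 0.15 to 0.26, -0.38 to -0.35, 0.44 to 0.48, -0.42 to -0.38 and 1.13 to 1.34. Depth limits TGFB3, which had 10 to 54 reads per sample.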
